A study of Arabidopsis thaliana with 18 samples.

Results

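The 9 arrays described here, of 18 in the series, all hold RNA from the Arabidopsis thaliana accession Van-0 treated with salicylic acid (SA). They were chosen by their treatment label and divided by the number in their titles into title set 1 (titles numbered 118 to 120), title set 2 (121 to 123) and title set 3 (124 to 126), with 3 arrays a set, marked Rep1 to Rep3. Every plant sample in the 3 sets received SA at 0.30 mM in 0.02% silwet, a surfactant that lets a sprayed solution wet and enter leaves, so the surfactant is shared by all 9 arrays; the other 9 arrays of the series, with silwet alone, are used only where named. The labels do not say what a title set stands for. The project this series belongs to is known for harvesting plants at several times after spraying, but no label ties a set to a time, so the sets are called by number, and a time and a processing batch cannot be told apart as the difference between them. The labels give no tissue or plant age, and nothing says that arrays of a set came from separately grown plants, so p-values measure the spread between these arrays, which may be technical. Whole samples were measured, so fewer cells of a type and less RNA per cell cannot be told apart.

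Salicylic acid is the hormone that plants use against pathogens that feed on living tissue. It acts through the coactivator NPR1, which enters the nucleus and works with TGA and WRKY transcription factors on defence genes. The response includes glutaredoxins, receptor kinases, endoplasmic reticulum chaperones that fold secreted proteins, and glucosyltransferases that take SA and its relatives out of action by attaching a sugar. The hormone opposes jasmonate, auxin and abscisic acid responses in many settings.

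Each array gave 1 MAS5 signal, the Affymetrix summary of a probe set on a linear scale, for each of 22810 probe sets, scaled by the authors so that the trimmed mean of every array was 100. The median signal of the SA arrays lay between 24.1 and 35.2. On the log2(signal + 2) scale used for all tests, the title set accounted for 66.7% of the variance over the 9 arrays, the Rep number for 12.8% and the remainder for 20.5%. The first principal component held 54.0% of the variance and put the 3 arrays of set 1 at 67.1, 73.4 and 67.3, against -55.2, -48.2 and -47.3 for set 2 and -20.4, -1.8 and -34.9 for set 3. On this component set 1 was far from both other sets. On the second component, with 20.0% of the variance, set 3 Rep1 and Rep2 lay at -44.1 and -63.4, while set 3 Rep3 lay at 5.9, beside the set 2 arrays at 18.4, 42.4 and 4.4. The second component thus parted set 3 Rep1 and Rep2 from set 2, and set 3 Rep3 stood apart from its own set, and results on set 3 are given with and without it where that matters. No 2 arrays were alike: the median absolute log2 difference between arrays ran from 0.247 to 0.283 within set 1, from 0.270 to 0.319 within set 2 and from 0.267 to 0.445 within set 3, against 0.567 to 0.662 between sets 1 and 2, 0.462 to 0.576 between sets 1 and 3 and 0.251 to 0.569 between sets 2 and 3. Differences between arrays of sets 2 and 3 thus overlapped those within sets.

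**Figure D1:**
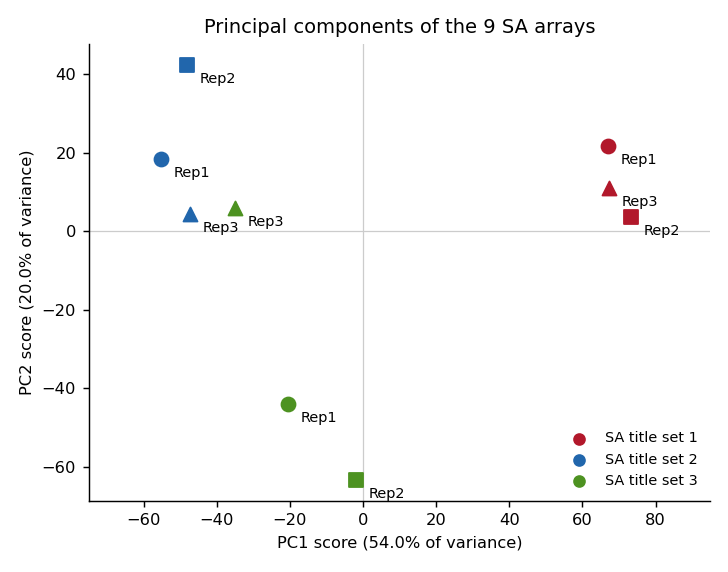
First and second principal component scores of the 9 SA arrays, from the log2(signal + 2) values of the tested probe sets. Colours stand for title sets and symbols for Rep numbers. The 3 set 1 arrays sit at the right, and set 3 Rep3 sits among the set 2 arrays and away from set 3 Rep1 and Rep2.

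As a measure of RNA quality, the ratio of 5' to 3' signal moved with the sets for ubiquitin and GAPDH but not for actin. For the ubiquitin control transcript, the signal of the 5' probe set divided by that of the 3' probe set was 0.876 ± 0.0669 in set 1, 0.793 ± 0.00923 in set 2 and 0.737 ± 0.0426 in set 3 (SD, n = 3 each; exact permutation test over the 9 arrays, two-sided, p = 0.00357, adjusted over 3 transcripts 0.0107). For GAPDH the ratio was 1.20 ± 0.0690, 0.942 ± 0.108 and 0.895 ± 0.124 in sets 1, 2 and 3 (SD, n = 3 each; exact permutation p = 0.0286, adjusted 0.0429). For actin the 3 sets overlapped and set 1 had the lowest mean, at 0.172 ± 0.0325, 0.253 ± 0.0711 and 0.231 ± 0.153 (SD, n = 3 each, exact permutation p = 0.621). The part of RNA quality in the differences below was not tested. Of the cell type markers, the leaf mesophyll gene RCA, which encodes Rubisco activase, had signals of 2381, 3160 and 2312 in set 1, 4059, 3453 and 2892 in set 2 and 3420, 3739 and 3246 in set 3. RCA was called lower in set 1 than in sets 2 and 3 (log2 -0.41 and -0.42, limma adjusted p = 0.0329 and 0.0423). Those calls were lost in 8 and 10 of 18 alternatives, and both were lost after quantile normalization. The stomatal lineage genes FMA and SPCH and the root gene EXPA18 were the only other markers among the probe sets tested. None of those 3 passed the test between set 1 and either other set, and no flower or pollen marker was tested.

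Which transcripts differed between the sets was asked with limma over all 15922 probe sets left after the dimmest 30% by mean over the 9 arrays were dropped, with the Rep number as a block and Benjamini-Hochberg adjustment over all of them. Between set 1 and set 2, 6749 probe sets passed an adjusted p of 0.05, which is 42.4% of those tested, with 3585 (22.5%) higher in set 1 and 3164 (19.9%) lower. Between set 1 and set 3, 4314 passed (27.1%), with 1942 (12.2%) higher in set 1 and 2372 (14.9%) lower. Both comparisons use the same set 1 arrays and are not independent of each other. A change of at least 2-fold was seen in 3858 of the probe sets called between sets 1 and 2, of which 2494 were higher in set 1, and in 2403 of those called between sets 1 and 3, of which 1302 were higher in set 1. Between set 2 and set 3, 0 probe sets passed (0%), the smallest adjusted p in limma was 0.0558, and 4050 had an unadjusted p under 0.05. An F-test over the 3 sets passed 6567 probe sets (41.2%). The median log2 difference of all tested probe sets was 0.0218 between sets 1 and 2 and -0.0835 between sets 1 and 3.

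The balance of higher and lower calls between sets 1 and 2 depended on scaling. The share of these calls that were higher in set 1 was 53.1%, but 46.3% after quantile normalization (3102 higher, 3602 lower). It was 39.1% when each array was centred on its median (2782 higher, 4331 lower). The count between sets 1 and 2 was 4314 without set 1 Rep3. The count between sets 1 and 3 was 2560 without set 1 Rep1, 2554 without set 1 Rep3 and 2425 without set 3 Rep1.

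Genes of SA response and metabolism were higher in set 1. Of 6 tested members, 5 (83.3%, against 22.5% of all tested probe sets) were higher in set 1 than in set 2. Likewise 5 (83.3%, against 12.2%) were higher in set 1 than in set 3. The median log2 differences were 1.83 and 2.09. UGT76B1 (AT3G11340), which encodes the glucosyltransferase that conjugates SA, N-hydroxypipecolic acid and isoleucic acid, had signals of 1561, 1356 and 1398 in set 1, 40.5, 146 and 86.6 in set 2, and 31.9, 34.8 and 33.8 in set 3. All 3 set 1 arrays were far above the rest, and every set 2 array was above every set 3 array. The log2 difference was 4.13 ± 0.33 between sets 1 and 2 (SE; limma adjusted p = 4.79e-05) and 5.34 ± 0.33 between sets 1 and 3 (adjusted p = 4.68e-05), the widest of any named gene. Between sets 2 and 3 it was 1.21 ± 0.33, which did not pass (adjusted p = 0.0791).

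GRX480 (AT1G28480), an SA-induced glutaredoxin that binds TGA factors and represses the jasmonate marker PDF1.2, had signals of 725, 827 and 714 in set 1, 218, 320 and 252 in set 2 and 101, 115 and 250 in set 3. Set 1 did not overlap the other sets, and set 3 Rep3 was level with set 2. The log2 difference was 1.53 ± 0.28 between sets 1 and 2 (limma adjusted p = 0.00205) and 2.38 ± 0.28 between sets 1 and 3 (adjusted p = 0.000343). AT5G52810, for which the tables used here give no name, had 504, 473 and 519 in set 1, 105, 194 and 117 in set 2 and 133, 126 and 174 in set 3. Its set 2 and set 3 arrays overlapped, and the log2 difference was 1.88 between sets 1 and 2 and 1.79 between sets 1 and 3 (limma adjusted p = 0.000311 and 0.000654). BSMT1, which encodes a methyltransferase that makes methyl salicylate, was the member that did not pass: it averaged 49.1 ± 11.5 in set 1, 59.7 ± 45.3 in set 2 and 21.1 ± 4.39 in set 3 (SD, n = 3 each). PDF1.2, the jasmonate and ethylene defensin, ran the other way, with 7.42, 4.22 and 7.31 in set 1, 15.9, 18.7 and 33.7 in set 2 and 52.7, 21.1 and 17.5 in set 3. Set 1 differed from sets 2 and 3 by -1.53 and -1.83 on the log2 scale (limma adjusted p = 0.0142 and 0.00918). Both PDF1.2 calls were lost when 1 array was left out, the first without set 2 Rep3 (adjusted p = 0.0680), set 1 Rep1 (0.0536) or set 1 Rep2 (0.0595) and the second without set 3 Rep1 (0.0637). Of 3 tested genes of jasmonate and ethylene defence, 1 was lower in set 1 than in set 2 and 2 were lower than in set 3 (33.3% and 66.7%, against 19.9% and 14.9% of all tested). PDF1.2b differed by 0.04 from set 2 (limma adjusted p = 0.961) and by -1.67 from set 3 (0.0497). Its second call was lost in 8 of 17 alternatives.

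**Figure D2:**
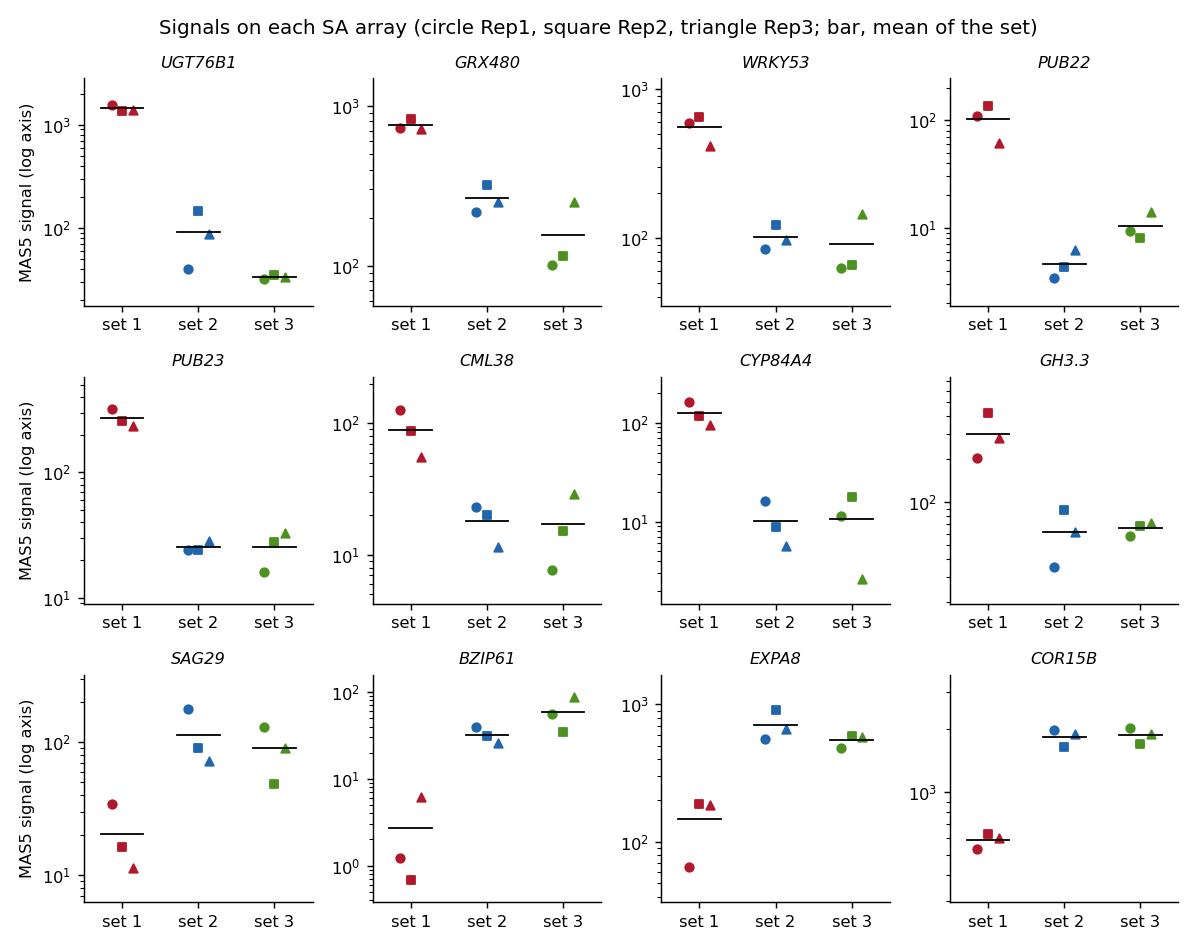
MAS5 signal, on a log axis, of 12 genes on each SA array, with title sets 1, 2 and 3 from left to right. Each point is 1 array, its shape gives the Rep number and the bar is the mean of the set. In the top 2 rows set 1 lies above sets 2 and 3, and in the bottom row it lies below them.

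WRKY transcription factors, which carry much of the SA output, were higher in set 1 where they passed. Of 6 tested, 4 were higher in set 1 than in set 2, where 22.5% of all tested probe sets were. Against set 3, 3 of the 6 were higher in set 1, where 12.2% of all tested were. WRKY53, a regulator of senescence and defence, had signals of 590, 652 and 412 in set 1, 83.9, 123 and 96.8 in set 2 and 63.3, 65.4 and 145 in set 3. The set 1 arrays were all above the others, and set 3 Rep3 was the highest array outside set 1. The log2 difference was 2.41 ± 0.32 between sets 1 and 2 and 2.65 ± 0.32 between sets 1 and 3 (limma adjusted p = 0.000405 and 0.000445). WRKY22, an immune factor downstream of a MAP kinase cascade, averaged 63.9 ± 3.57, 31.2 ± 7.76 and 27.3 ± 12.1 in sets 1, 2 and 3, and WRKY6, linked to senescence and phosphate signalling, averaged 234 ± 31.0, 83.7 ± 13.3 and 116 ± 91.5 (SD, n = 3 each). WRKY20 and WRKY47 did not pass, with log2 differences of 0.21 and -0.06 between sets 1 and 2. The WRKY22 call between sets 1 and 2 was lost without set 1 Rep1 (adjusted p = 0.0676) or set 2 Rep1 (0.0603). For WRKY6 that call was lost without set 1 Rep1 (0.0580) or set 1 Rep2 (0.0610), and its call between sets 1 and 3 had an adjusted p of 0.117 to 0.164 without set 1 Rep1, set 1 Rep2, set 3 Rep1 or set 3 Rep2.

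Early stress and wound genes, which rise within the first response to a touch or an elicitor in many plant experiments, were higher in set 1. Of 6 tested, 5 (83.3%) were higher in set 1 than in each other set. Of all tested probe sets, 22.5% were higher in set 1 than in set 2 and 12.2% than in set 3. The median log2 difference of the list was 2.06 against set 2 and 2.25 against set 3. PUB22 (AT3G52450) and PUB23 (AT2G35930) encode U-box ubiquitin ligases that damp immune signalling. PUB22 had signals of 109, 136 and 61.4 in set 1, 3.40, 4.32 and 6.18 in set 2 and 9.27, 8.10 and 13.9 in set 3, a log2 difference of 3.92 ± 0.36 between sets 1 and 2 and 3.02 ± 0.36 between sets 1 and 3 (limma adjusted p = 7.55e-05 and 0.000405). The 3 sets did not overlap for PUB22, with set 2 lowest on all its arrays. PUB23 had 323, 259 and 233 in set 1, 24.0, 23.9 and 28.3 in set 2 and 16.1, 27.7 and 32.6 in set 3, and PUB24, the third member of that group, averaged 314 ± 43.9 in set 1, 79.9 ± 18.0 in set 2 and 94.3 ± 23.9 in set 3 (SD, n = 3 each). The log2 difference of PUB23 was 3.31 and 3.36 and that of PUB24 was 1.96 and 1.73 (limma adjusted p at most 0.000400 for these 4 differences). Across the PUB family, 5 of 8 tested members (62.5%, against 22.5% of all tested) were higher in set 1 than in set 2. Of the same 8, 3 (37.5%, against 12.2%) were higher in set 1 than in set 3. PUB25 and PUB26, relatives that also act in immunity, did not pass, with log2 differences of -0.27 and -0.43 between sets 1 and 2.

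Of 6 calmodulin-like genes tested in the calcium sensor list, 4 were higher in set 1 than in set 2 (66.7%, against 22.5% of all tested). Against set 3, 4 were higher in set 1 (66.7%, against 12.2%). CML37 and CML38 are also members of the early stress list, so the counts of both lists share these 2 genes. CML38 had signals of 126, 87.6 and 55.4 in set 1, 23.3, 20.0 and 11.4 in set 2 and 7.64, 15.2 and 28.8 in set 3. The log2 differences from sets 2 and 3 were 2.16 and 2.34 (limma adjusted p = 0.00493 and 0.00492). CML37, its close relative, had 91.7, 112 and 101 in set 1, 26.9, 93.9 and 27.1 in set 2 and 13.0, 17.8 and 40.3 in set 3. Set 2 Rep2 of CML37 overlapped set 1, and its call between sets 1 and 2 (log2 1.26; adjusted p = 0.0408) was lost without set 1 Rep1, Rep2 or Rep3, set 2 Rep1 or Rep3, or set 3 Rep1 (adjusted p 0.0572 to 0.175). STZ, a zinc finger repressor of salt and cold responses, did not pass in limma: it averaged 577 ± 100 in set 1, 286 ± 82.7 in set 2 and 279 ± 271 in set 3 (SD, n = 3 each; adjusted p = 0.125 and 0.0562).

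Genes of protein folding in the endoplasmic reticulum, a list that includes transcription factors, were higher in set 1: 4 of 6 tested against set 2 and 4 of 6 against set 3. Both counts are 66.7%, where 22.5% and 12.2% of all tested probe sets were higher in set 1. ATERDJ3B, a DnaJ co-chaperone needed to make surface immune receptors, had signals of 1032, 1373 and 1044 in set 1, 402, 370 and 374 in set 2 and 369, 470 and 284 in set 3. Set 1 was above every other array, and the log2 difference was 1.57 ± 0.17 and 1.63 ± 0.17 (limma adjusted p = 0.000161 and 0.000230). BZIP60, the transcription factor of the unfolded protein response that is spliced by IRE1, had 1179, 1108 and 1093 in set 1, 383, 733 and 414 in set 2 and 249, 276 and 624 in set 3. On the log2 scale, set 1 minus set 2 and set 1 minus set 3 came to 1.20 and 1.68 (adjusted p = 0.0139 and 0.00420). BZIP28, the membrane-bound factor that acts beside it, averaged 190 ± 20.8, 94.4 ± 21.1 and 111 ± 11.2 in sets 1, 2 and 3, while BZIP17 did not pass (107 ± 22.4, 92.1 ± 25.2 and 93.6 ± 4.72; SD, n = 3 each). CRT1b, the remaining called member, differed by 0.60 and 0.58 (limma adjusted p = 0.0227 and 0.0371), and its set 1 and set 3 arrays overlapped. Its calls were lost in 7 and 8 of 18 alternatives. Only 2 of the 6 members were called between sets 1 and 2 after median centring, where BZIP60 had an adjusted p of 0.0539. The BZIP60 call between sets 1 and 2 was also lost without set 1 Rep1 (0.0792), set 2 Rep1 (0.0660) or set 2 Rep3 (0.0581), and the BZIP28 call between sets 1 and 3 without set 1 Rep1 (0.0733), set 1 Rep2 (0.0680), set 1 Rep3 (0.0652) or set 3 Rep2 (0.0708). Outside the organelle, Fes1A, a cofactor of cytosolic HSP70, averaged 464 ± 85.0 in set 1, 122 ± 48.5 in set 2 and 95.4 ± 19.5 in set 3 (SD, n = 3 each; log2 difference 1.96 and 2.26; limma adjusted p = 0.000580 and 0.000476).

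UDP-glycosyltransferases, a large family that attaches sugars to hormones, flavonoids and foreign compounds, were called in both directions. Between sets 1 and 2 their shares were near those of all probe sets. Of 33 tested, 8 were higher in set 1 than in set 2 and 7 were lower (24.2% and 21.2%, against 22.5% and 19.9% of all tested). Against set 3, 8 were higher in set 1 and 6 were lower (24.2% and 18.2%, against 12.2% and 14.9%). Besides UGT76B1, the high members included UGT73B5 with 160, 137 and 153 in set 1, 14.4, 21.7 and 12.4 in set 2 and 22.5, 29.8 and 16.5 in set 3. Against sets 2 and 3 in turn, the log2 difference of set 1 was 3.09 and 2.64 (limma adjusted p = 4.79e-05 and 0.000136). UGT73D1 averaged 216 ± 53.6, 31.8 ± 15.5 and 24.9 ± 11.6 in sets 1, 2 and 3. UGT73C1, a glucosyltransferase of cytokinins, ranged more within set 1, with 177, 78.5 and 38.6, against 3.61, 8.10 and 8.05 in set 2 and a mean of 7.06 ± 4.44 in set 3 (SD, n = 3). UGT72B3 lay the other way, with 18.1, 32.2 and 34.0 in set 1, 141, 122 and 160 in set 2 and 89.5, 99.8 and 106 in set 3. Log2 differences of -2.28 and -1.78 separated set 1 from sets 2 and 3 (adjusted p = 9.63e-05 and 0.000516). The flavonol glycosyltransferase gene UGT78D1 was also lower in set 1, at 52.4 ± 18.2, against 170 ± 69.0 in set 2 and 107 ± 21.5 in set 3 (SD, n = 3 each).

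Cytochrome P450 and glutathione transferase genes likewise held members at both ends. Of 15 P450 genes tested, 3 were higher and 4 lower in set 1 than in set 2 (20.0% and 26.7%, against 22.5% and 19.9% of all tested). Against set 3, 2 were higher and 5 lower in set 1 (13.3% and 33.3%, against 12.2% and 14.9%). CYP84A4, an enzyme of arabidopyrone synthesis, had signals of 163, 116 and 95.9 in set 1, 16.2, 8.76 and 5.68 in set 2 and 11.3, 17.9 and 2.65 in set 3. Set 1 differed from sets 2 and 3 by 3.44 and 3.53 on the log2 scale (limma adjusted p = 0.000120 and 0.000178). CYP71B37 had the opposite pattern, with 5.12, 5.45 and 4.84 in set 1, 64.8, 28.6 and 41.7 in set 2 and 73.5, 49.8 and 29.4 in set 3. The log2 differences from sets 2 and 3 were -2.65 and -2.80 (adjusted p = 0.000237 and 0.000306). The CYP71B genes are close relatives on the genome, so probe sets of the group may share some signal. Among 10 glutathione transferases, GSTU22 and GSTU25 of the stress-induced tau class were higher in set 1 (log2 difference 2.29 and 2.09 against set 2, 2.52 and 2.64 against set 3), while GSTU18 and GSTU20 were lower (-1.29 and -0.77 against set 2, -1.21 and -0.86 against set 3). GSTU25 had 248, 73.7 and 77.6 in set 1, so the height of set 1 rested in part on Rep1, against 24.6, 36.3 and 17.1 in set 2 and 12.7, 27.4 and 12.6 in set 3.

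B120, CCR2, GFAT, DLAH and XTH18 were each among the 12 genes most raised in set 1 in at least 1 of the comparisons. B120, a G-type lectin receptor kinase, had signals of 128, 146 and 121 in set 1, 11.1, 17.1 and 8.94 in set 2 and 11.8, 16.1 and 18.4 in set 3. On the log2 scale, set 1 minus set 2 and set 1 minus set 3 came to 3.25 and 2.95 (limma adjusted p = 4.75e-05 and 0.000102). BIK1, the cytoplasmic kinase that relays pattern recognition, was the only tested member of the receptor kinase list and had 392, 459 and 399 in set 1, 86.4, 170 and 119 in set 2 and 95.8, 112 and 176 in set 3. Against sets 2 and 3 in turn, the log2 difference of set 1 was 1.77 and 1.74 (adjusted p = 0.000462 and 0.000811). In both, set 1 did not overlap sets 2 and 3, which overlapped each other. CCR2, a cinnamoyl-CoA reductase of lignin and defence phenolics, averaged 102 ± 48.1 in set 1, 10.0 ± 5.96 in set 2 and 13.9 ± 7.15 in set 3, and GFAT, whose product feeds amino sugar synthesis, averaged 135 ± 50.6 in set 1, 12.4 ± 1.21 in set 2 and 18.5 ± 13.6 in set 3 (SD, n = 3 each; limma adjusted p at most 0.000614 for these 4 differences). DLAH, a mitochondrial lipid hydrolase, had a log2 difference of 3.04 and 2.43, and the xyloglucan enzyme gene XTH18 one of 2.56 and 2.65. XTH18 had 111, 321 and 74.6 in set 1, where Rep2 was far above the others.

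The auxin list, with 6 tested genes, held 2 that were higher in set 1 in both comparisons, both of them auxin-conjugating enzymes. That is 33.3% of the list, against 22.5% of all tested probe sets for set 2 and 12.2% for set 3. GH3.3, which joins auxin to amino acids, had signals of 204, 419 and 280 in set 1, 34.9, 87.7 and 61.5 in set 2 and 57.6, 68.3 and 71.4 in set 3. Log2 differences of 2.29 and 2.11 separated set 1 from sets 2 and 3 (limma adjusted p = 9.74e-05 and 0.000243). WES1, which encodes another GH3 enzyme, had 58.0, 61.2 and 91.4 in set 1, 27.3, 35.8 and 27.6 in set 2 and 38.6, 38.9 and 43.1 in set 3 (log2 1.14 and 0.75; adjusted p = 0.00359 and 0.0375). The second of these calls was lost in 8 of 18 alternatives, with an adjusted p of up to 0.212 without set 1 Rep3. Of the other 4 auxin genes tested, 0 passed between sets 1 and 2. Between sets 1 and 3, IAA29, an auxin response repressor gene, was lower in set 1 (log2 -0.86; adjusted p = 0.0359), a call lost in 7 of 18 alternatives (adjusted p of up to 0.176).

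Genes of abscisic acid and dehydration were lower in set 1. Of 9 tested, 5 were lower (55.6%, against 19.9% of all tested) and 1 higher (11.1%, against 22.5%) in set 1 than in set 2. Against set 3, 6 were lower in set 1 (66.7%, against 14.9%). The medians were -0.96 and -0.93 on the log2 scale. COR15B, which encodes a chloroplast cryoprotective protein, had signals of 537, 633 and 601 in set 1, 1987, 1646 and 1886 in set 2 and 2024, 1705 and 1898 in set 3. Sets 2 and 3 overlapped and both lay above set 1, and the log2 difference was -1.64 ± 0.14 between sets 1 and 2 and -1.66 ± 0.14 between sets 1 and 3 (limma adjusted p = 5.68e-05 and 9.13e-05). SAG29 (AT5G13170), a SWEET sugar transporter gene of senescence and abscisic acid response, had 34.1, 16.2 and 11.3 in set 1, 179, 90.7 and 71.6 in set 2 and 130, 48.6 and 90.8 in set 3. Set 1 differed from sets 2 and 3 by -2.38 ± 0.27 and -2.04 ± 0.27 on the log2 scale (adjusted p = 0.000188 and 0.000633).

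BZIP61, a transcription factor gene, had signals of 1.22, 0.687 and 6.18 in set 1, 39.9, 30.9 and 25.7 in set 2 and 55.1, 34.2 and 87.9 in set 3. Its set 1 signals were among the dimmest on the array, so the fitted log2 differences of -3.02 and -3.79 (limma adjusted p = 0.000319 and 0.000192) depend on the 2 units added before taking logs. AT3G02480, unnamed in the tables used here, had 17.7, 4.82 and 1.41 in set 1, 175, 104 and 45.2 in set 2 and 88.9, 23.8 and 105 in set 3. The log2 differences from sets 2 and 3 were -3.64 and -3.03 (adjusted p = 0.000798 and 0.00321). Without set 3 Rep3, the difference from set 3 was -2.10 ± 0.29 (SE). Its arrays varied widely inside each set, and those of set 1 lay below the rest. COR47, a dehydrin gene, was lower in set 1 than in set 3 only, averaging 716 ± 253, 813 ± 96.2 and 1290 ± 189 in sets 1, 2 and 3 (SD, n = 3 each), while LTI30, another dehydrin gene, passed in neither comparison (190 ± 72.3, 148 ± 19.0 and 222 ± 63.4).

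Genes of cell wall loosening that passed were lower in set 1 more often than higher. Of 20 tested, 8 (40.0%, against 19.9% of all tested) were lower and 2 higher than in set 2, 7 (35.0%, against 14.9%) were lower and 2 higher than in set 3, and the rest did not pass. EXPA8, an expansin gene of growing tissue, had signals of 65.9, 190 and 186 in set 1, 560, 911 and 664 in set 2 and 477, 584 and 578 in set 3. On the log2 scale, set 1 minus set 2 and set 1 minus set 3 came to -2.37 ± 0.25 and -2.02 ± 0.25 (limma adjusted p = 0.000132 and 0.000492). All of set 1 lay below all of sets 2 and 3. EXPA15, EXPA4, EXPB1, EXPB3, XTH16 and XTH32 were lower in both comparisons as well, and EXPA16 and XTH18 were higher in both. GH9C2, an endoglucanase gene, had 97.0, 175 and 119 in set 1, 719, 749 and 1015 in set 2 and 553, 764 and 305 in set 3. Against sets 2 and 3 in turn, the log2 difference of set 1 was -2.68 and -1.98 (adjusted p = 0.000161 and 0.00115). Of 13 genes of wall synthesis and pectin, 4 were higher (30.8%, against 22.5% of all tested) and 0 lower in set 1 than in set 2. Against set 3, 2 were higher (15.4%, against 12.2%) and 1, CSLC5, was lower (log2 -0.96, limma adjusted p = 0.0355). The CSLC5 call was lost in 7 of 18 alternatives, with an adjusted p of up to 0.186. The higher calls were PME61 (adjusted p = 0.0482), lost in 11 of 18, and ATPMEPCRB (0.0180), lost in 4 of 18. The widest difference was in the pectin methylesterase gene ATPMEPCRB at 518, 605 and 324 in set 1, 97.3, 134 and 136 in set 2 and 138, 203 and 314 in set 3.

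Genes of cell division and the cytoskeleton followed. Of 13 tested cell cycle, histone and tubulin genes, 5 were lower (38.5%, against 19.9% of all tested) and 1 higher in set 1 than in set 2. Against set 3, 6 were lower (46.2%, against 14.9%) and 1 higher in set 1. The histone gene HTB1 had signals of 127, 79.1 and 84.4 in set 1, 259, 263 and 239 in set 2 and 252, 178 and 159 in set 3. Log2 differences of -1.40 and -1.01 separated set 1 from sets 2 and 3 (limma adjusted p = 0.000477 and 0.00408). TUB5, a tubulin gene, had 135, 122 and 164 in set 1, 256, 253 and 303 in set 2 and 401, 359 and 338 in set 3, and the 3 sets did not overlap. TUA1 was the member that was higher in set 1 in both comparisons, at 201 ± 48.1, against 116 ± 24.7 in set 2 and 117 ± 7.95 in set 3 (SD, n = 3 each).

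STOMAGEN, a secreted peptide gene that promotes stomata and is made in the mesophyll, had signals of 41.6, 56.5 and 53.1 in set 1, 310, 262 and 259 in set 2 and 171, 146 and 201 in set 3. Set 1 differed from sets 2 and 3 by -2.42 ± 0.21 and -1.74 ± 0.21 on the log2 scale (limma adjusted p = 5.87e-05 and 0.000400). Its 3 sets were separate, with set 2 highest. DRT100, which encodes a leucine-rich repeat protein, had 82.3, 56.3 and 81.7 in set 1, 593, 510 and 507 in set 2 and 463, 313 and 442 in set 3. The log2 differences from sets 2 and 3 were -2.85 and -2.43 (adjusted p = 2.83e-05 and 5.19e-05). The set 1 arrays were again far below the rest. The response regulator gene RR16 of the cytokinin pathway was lower too, with 25.3, 18.4 and 13.2 in set 1, 94.5, 49.8 and 50.1 in set 2 and 57.7, 36.4 and 40.3 in set 3.

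Transporter genes were called between sets 1 and 2 no more often than all probe sets (36.4%, against 42.4%), and those that passed were mostly lower in set 1. Of 22 tested transporters of sugar, nitrate and amino acids, 7 were lower (31.8%, against 19.9% of all tested) and 1 higher in set 1 than in set 2, and 5 were lower (22.7%, against 14.9%) and 2 higher than in set 3. SWEET17, a fructose carrier of the vacuole, had signals of 133, 171 and 171 in set 1, 801, 562 and 625 in set 2 and 467, 421 and 423 in set 3. On the log2 scale, set 1 minus set 2 and set 1 minus set 3 came to -2.04 and -1.46 (limma adjusted p = 7.77e-05 and 0.000587). TMT2, a sugar carrier of the vacuole membrane, had 55.8, 81.6 and 85.9 in set 1, 188, 189 and 376 in set 2 and 319, 360 and 316 in set 3. DPE1, a plastid enzyme that recycles malto-oligosaccharides from starch, had 77.4, 42.6 and 52.7 in set 1, 218, 127 and 247 in set 2 and 301, 209 and 226 in set 3. Against sets 2 and 3 in turn, the log2 difference of set 1 was -1.73 and -2.08 (adjusted p = 0.000252 and 0.000185). Of 5 tested members of the serine carboxypeptidase-like list, 2 were lower in set 1 than in set 2, where 19.9% of all tested were. Against set 3, 3 were lower in set 1, where 14.9% of all tested were. The call of SCPL49 between sets 1 and 2 was lost in 5 of 18 alternatives, and that of SCPL27 between sets 1 and 3 in 8 of 18. SCPL34, a member, was lower in set 1 in both comparisons. So were the related genes scpl35 and scpl50, which are outside the list and its counts. The log2 differences of these genes ran from -2.20 to -1.52. SCPL34 had 24.4, 16.5 and 32.8 in set 1, 121, 81.5 and 110 in set 2 and 135, 91.5 and 127 in set 3.

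Beta-glucosidase genes, which release stored hormones and defence compounds, had 6 of 10 members higher and 1 lower in set 1 than in set 2. Of all tested probe sets, 22.5% were higher and 19.9% lower in set 1 than in set 2. Against set 3 the count was 1 of 10 higher and 1 lower, both below the shares of all tested (12.2% and 14.9%). BGLU33 had signals of 58.6, 87.6 and 99.3 in set 1, 39.4, 16.7 and 51.1 in set 2 and 55.4, 97.0 and 45.4 in set 3, and its call (log2 1.25; limma adjusted p = 0.0355) was lost in 7 of 18 alternatives. The count of 6 was 3 after quantile normalization and 4 after median centring. BGLU44, which is thought to act on mannose-containing glycosides, was the lower member, with 811, 745 and 844 in set 1, 2020, 1490 and 1631 in set 2 and 1624, 1668 and 1512 in set 3 (log2 difference -1.09 between sets 1 and 2; adjusted p = 0.000306 and, between sets 1 and 3, 0.000763).

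Photosynthesis genes of the nucleus were slightly lower in set 1, by amounts that rested on scaling. Of 11 tested, 6 were lower (54.5%, against 19.9% of all tested) and 1 higher in set 1 than in set 2. Against set 3, 6 were lower in set 1 (54.5%, against 14.9%). The median was -0.41 on the log2 scale in both comparisons. After quantile normalization 0 were lower than in set 2 and 2 were lower than in set 3, and after median centring 8 and 2 were. PSBY, a photosystem II subunit gene, had signals of 2201, 2547 and 2179 in set 1, 3837, 3435 and 2982 in set 2 and 3207, 3451 and 3043 in set 3. Log2 differences of -0.56 and -0.49 separated set 1 from sets 2 and 3 (limma adjusted p = 0.00363 and 0.0108). The first call was lost after quantile normalization (adjusted p = 0.0663) and the second without set 1 Rep1 (0.0734). LHCB4.3, an antenna protein gene, was the higher member, at 270 ± 47.3, against 142 ± 29.5 in set 2 and 248 ± 78.4 in set 3 (SD, n = 3 each).

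Plastid genes were mixed. Of 35 plastid-encoded photosynthesis genes, 2 were higher and 3 lower in set 1 than in set 2. Against set 3, 6 were higher (17.1%, against 12.2% of all tested) and 0 lower in set 1. The 14.3% called between sets 1 and 2 compares with 42.4% of all tested, and after median centring 1 was higher and 8 were lower in set 1 than in set 2. psaA, a photosystem I core gene, had signals of 425, 605 and 862 in set 1, 111, 217 and 324 in set 2 and 66.3, 253 and 143 in set 3. Set 1 differed from sets 2 and 3 by 1.60 and 2.16 on the log2 scale (limma adjusted p = 0.00175 and 0.000573). Of 20 plastid genes of transcription and translation, 9 were higher (45.0%, against 22.5% of all tested) and 2 lower (10.0%, against 19.9%) in set 1 than in set 2. After median centring 7 were higher and 5 lower. Against set 3, 0 passed, where 27.1% of all tested did. rpl22, a ribosomal protein gene, had 621, 771 and 790 in set 1, 152, 179 and 288 in set 2 and 235, 828 and 272 in set 3, so that set 3 Rep2 was level with set 1. Of 10 plastid NDH genes, 0 passed between sets 1 and 2. Only ndhG and ndhK were higher in set 1 than in set 3 (20.0%, against 12.2% of all tested). Those 2 calls (adjusted p = 0.0271 and 0.0251 in limma) were lost without set 1 Rep1 or Rep3 or set 3 Rep1 or Rep2, with values of up to 0.163 and 0.128. ATH1 targets are primed from poly(A) tails in the usual protocol, so plastid signals also carry differences in how such transcripts were primed; the labels do not describe this step, and its part was not tested.

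**Figure D3:**
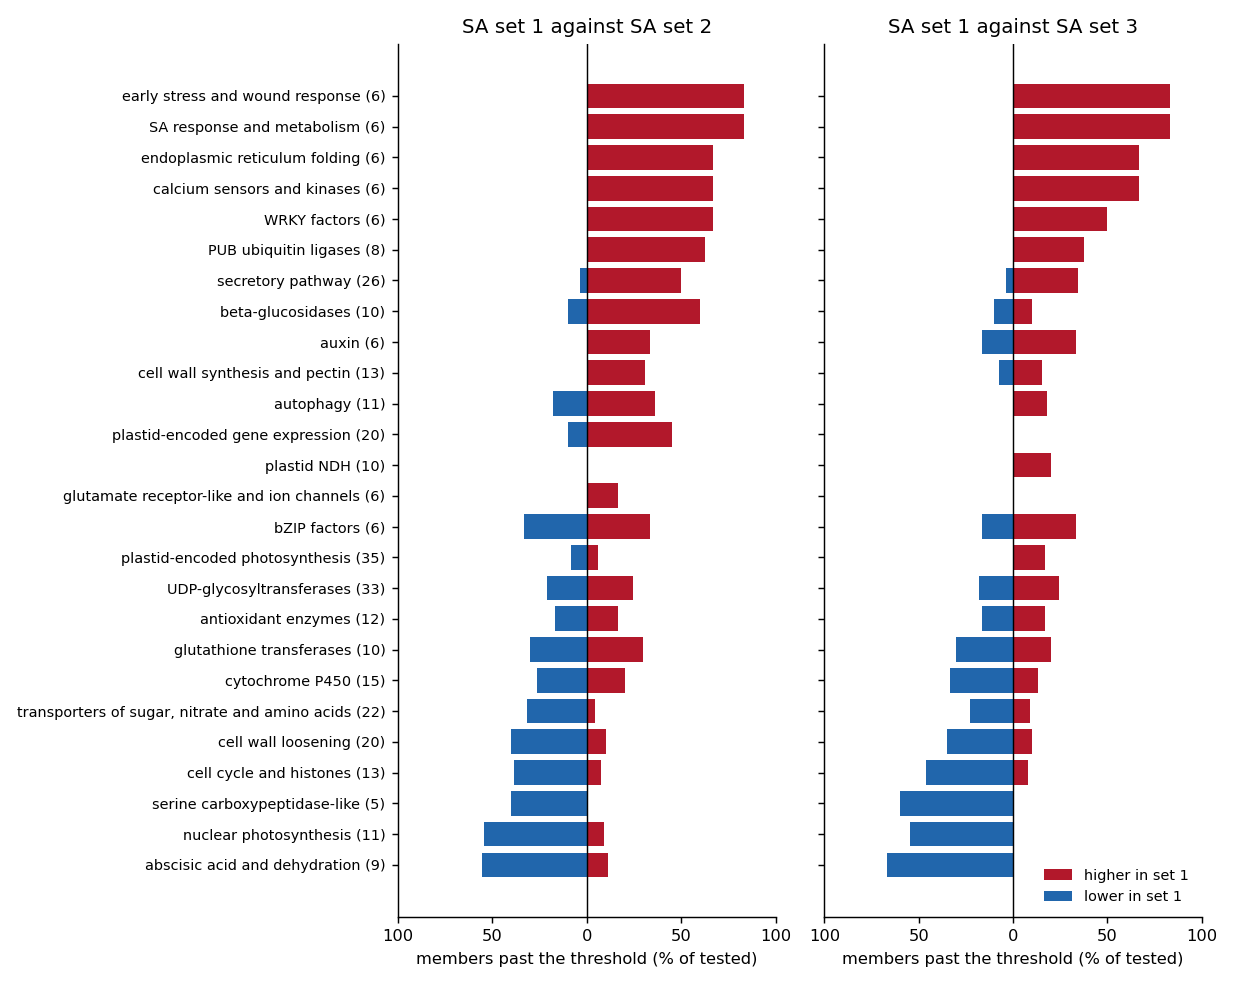
Share of tested members of each gene list past the threshold, higher in set 1 (red, to the right) or lower in set 1 (blue, to the left), for set 1 against set 2 and set 1 against set 3; the number of tested members stands in brackets, for lists with at least 5. SA response, early stress, folding, calcium and WRKY genes extend to the right, and abscisic acid, photosynthesis and carboxypeptidase-like genes to the left.

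By its mean, set 3 most often lay between the other sets. Between sets 2 and 3, 0 probe sets passed, so the order of those means was not resolved for any single probe set. The means include set 3 Rep3, which stood beside set 2. Among the 6567 probe sets that passed the F-test, the set means fell in the order set 1, set 3, set 2 from the top in 2276 (34.7%, against 25.9% of all tested) and in the order set 2, set 3, set 1 in 2056 (31.3%, against 24.9%). Set 2 lay in the middle in 809 probe sets with set 1 highest (12.3%) and in 897 with set 3 highest (13.7%). Set 1 lay in the middle in 422 and 107 probe sets (6.43% and 1.63%).

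**Figure D4:**
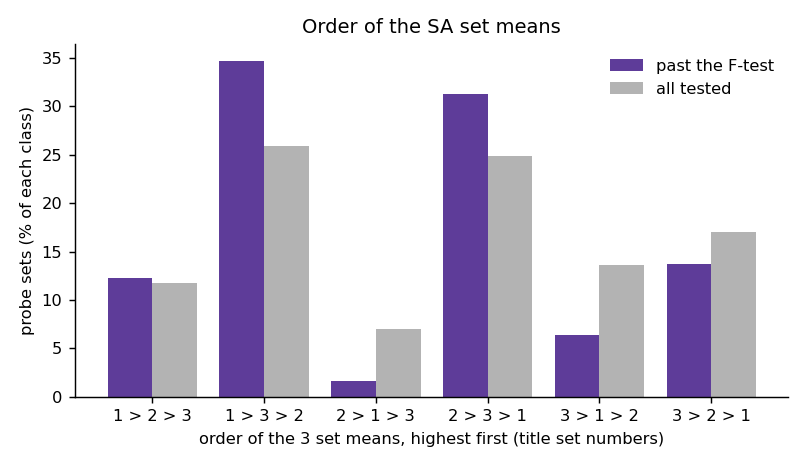
Share of probe sets with each order of the 3 SA set means, among those past the F-test (purple) and among all tested (grey). Orders with set 3 in the middle are the 2 tallest purple bars, at 34.7% and 31.3%. Set 3 Rep3 is included in the means.

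Some secretory pathway genes had set 3 in the middle. Of 26 tested, 13 were higher (22.5% of all tested were) and 1 lower in set 1 than in set 2, and 9 were higher (34.6%, against 12.2%) and 1 lower than in set 3, with medians of 0.62 and 0.47 on the log2 scale. KEU (AT1G12360) encodes the SM protein KEULE, which guides vesicle fusion at the cell plate, and averaged 265 ± 43.6 in set 1 (SD, n = 3, lowest 226), with signals of 12.1, 29.2 and 11.8 in set 2 and 66.1, 120 and 39.2 in set 3. The 3 sets did not overlap. The log2 difference was 3.86 ± 0.26 between sets 1 and 2 (limma adjusted p = 3.50e-05), 1.92 ± 0.26 between sets 1 and 3 (0.000729) and -1.94 ± 0.26 between sets 2 and 3 (0.0558). SEC6, a subunit of the exocyst that tethers vesicles at the plasma membrane, had 147, 154 and 127 in set 1, 16.7, 20.0 and 24.2 in set 2 and 95.1, 178 and 44.2 in set 3, so that set 3 overlapped set 1 but not set 2. The exocyst genes SEC15B and SEC5A averaged 111 ± 13.4 and 121 ± 13.5 in set 1, 20.7 ± 1.72 and 38.7 ± 14.5 in set 2 and 42.8 ± 17.4 and 109 ± 50.7 in set 3 (SD, n = 3 each).

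In VPS60.1 and VPS20.1 of the same list, ESCRT genes that sort membrane proteins to the vacuole, sets 2 and 3 were closer together. VPS60.1 had signals of 293, 197 and 294 in set 1, 46.2, 81.9 and 46.5 in set 2 and 72.5, 53.3 and 76.6 in set 3. The log2 differences from sets 2 and 3 were 2.16 and 1.91 (limma adjusted p = 0.000410 and 0.00121). VPS20.1 averaged 286 ± 65.2, 71.2 ± 21.7 and 75.9 ± 15.7 in sets 1, 2 and 3, and VPS9B, a Rab activator gene of endosomes, was the member that was lower in set 1, at 27.3 ± 3.69, 57.0 ± 9.68 and 50.4 ± 5.64 (SD, n = 3 each).

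Autophagy genes went both ways: 4 of 11 (36.4%) were higher and 2 (18.2%) lower in set 1 than in set 2, against 22.5% and 19.9% of all tested. After median centring 1 was higher and 3 were lower. Against set 3, 2 of 11 were higher in set 1 (18.2%, against 12.2% of all tested). ATG3, the enzyme that attaches ATG8 to lipid, had signals of 191, 199 and 216 in set 1, 57.1, 72.3 and 64.6 in set 2 and 150, 153 and 82.5 in set 3 (log2 1.62 between sets 1 and 2; limma adjusted p = 0.000725). Set 1 was above set 3 on every array, but that difference did not pass (0.70; adjusted p = 0.0571).

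Other genes with set 3 in the middle included SAG101, an immune partner of EDS1, at 65.2, 65.7 and 69.3 in set 1, 19.3, 15.4 and 19.4 in set 2 and 37.1, 43.8 and 29.9 in set 3. On the log2 scale, set 1 minus set 2 and set 1 minus set 3 came to 1.78 and 0.84 (limma adjusted p = 0.000346 and 0.0238). Its call between sets 1 and 3 was lost without any 1 of set 1 Rep1, Rep2 or Rep3, set 3 Rep1 or set 3 Rep3 (adjusted p 0.0616 to 0.120). ZAP1, a WRKY factor gene, had 88.1, 99.8 and 109 in set 1, 26.2, 26.4 and 26.0 in set 2 and 85.0, 106 and 44.1 in set 3, and was higher in set 1 than in set 2 (log2 1.84; adjusted p = 0.000835). Set 3 Rep1 and Rep2 of ZAP1 were level with set 1, and Rep3 was nearer to set 2. CYP71B23 had 458, 439 and 497 in set 1, 65.6, 94.4 and 76.0 in set 2 and 156, 214 and 129 in set 3, with no overlap of the 3 sets (log2 2.55 and 1.50; adjusted p = 5.06e-05 and 0.000764). XTH32 mirrored this from below, with 187, 295 and 188 in set 1, 742, 671 and 740 in set 2 and 388, 480 and 393 in set 3.

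A few genes had their widest difference in set 3. OSM34, an osmotin-like defence protein gene, had signals of 15.9, 13.4 and 29.7 in set 1, 31.3, 44.5 and 50.6 in set 2 and 88.6, 72.6 and 178 in set 3, so that each set lay above the one before (log2 difference -1.08 and -2.38 for set 1 against sets 2 and 3; limma adjusted p = 0.00702 and 0.000213). ATSPS4F, a sucrose phosphate synthase gene, had 6.52, 16.2 and 9.38 in set 1, 8.46, 2.54 and 16.8 in set 2 and 65.9, 68.5 and 20.0 in set 3 (log2 -1.97 between sets 1 and 3; adjusted p = 0.0381), and the clock gene GI had 143, 220 and 200 in set 1, a mean of 202 ± 95.9 in set 2 (SD, n = 3) and 345, 497 and 279 in set 3 (log2 -0.97; adjusted p = 0.0401). In both genes set 3 Rep3 was the lowest array of its set. The call of ATSPS4F between sets 1 and 3 was lost in 8 of 17 alternatives (adjusted p of up to 0.179), and that of GI in 8 of 18 (up to 0.178).

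**Figure D5:**
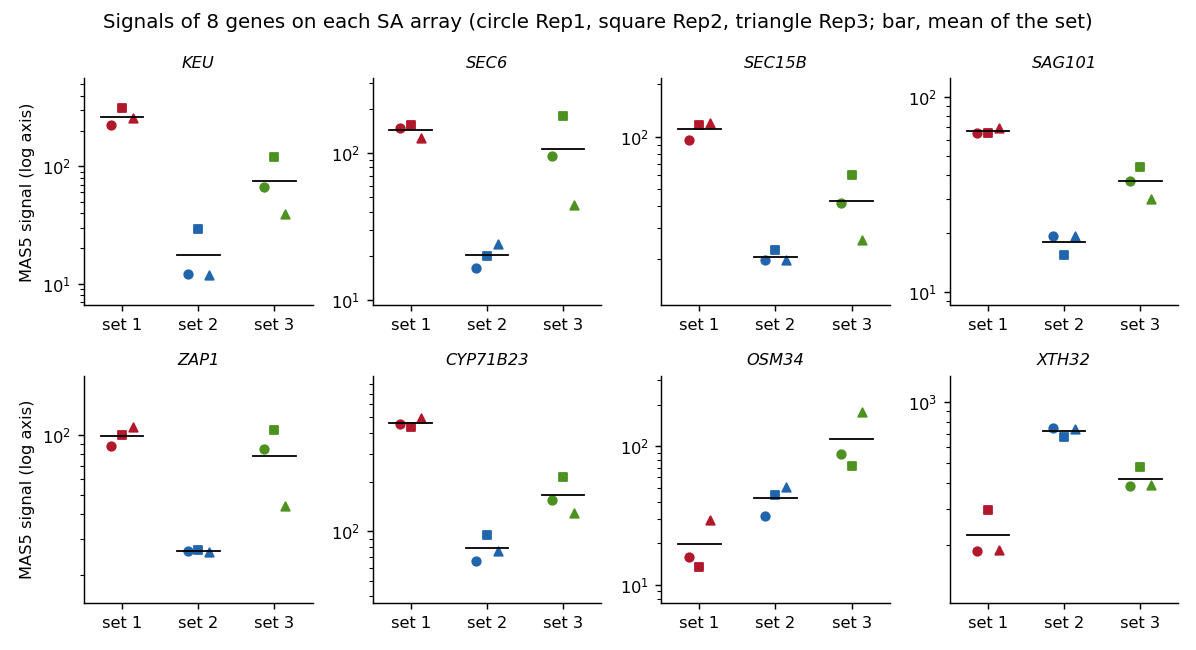
MAS5 signal, on a log axis, of 8 genes on each SA array, with title sets 1, 2 and 3 from left to right; points are arrays, shapes give the Rep number and bars are set means. In KEU, SEC6, SEC15B, SAG101, ZAP1 and CYP71B23 the mean of set 3 lies between those of set 1 above and set 2 below, and Rep3 (triangle) is the lowest array of set 3.

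The count of calls between sets 2 and 3 depended on which array was left out. Without set 3 Rep3, 3911 probe sets passed in limma (24.6%), with 1071 higher and 2840 lower in set 2. Without set 2 Rep3, 1346 passed, with 198 higher and 1148 lower, and without any other single array 0 passed. Set 3 Rep3 was singled out after these same data placed it beside set 2. Leaving it out favours calls between sets 2 and 3, and only Rep1 and Rep2 then stand for set 3. The adjusted p-values below therefore describe that fit and are not evidence of a difference. With set 3 Rep3 left out, KEU and SEC6 were lower in set 2 than in set 3 (log2 -2.21 and -2.61; adjusted p = 0.00180 and 0.00173), as were ZAP1, SAG101, CYP71B23 and GI. UGT76B1 and GRX480 were then higher in set 2 (log2 1.20 and 1.29; adjusted p = 0.0428 and 0.00238). Of the 26 secretory genes, 1 was then higher and 6 lower in set 2 (26.9%, against 24.6% of all tested). Set 1 against set 2 gave 7799 calls and set 1 against set 3 gave 4601 without that array.

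The silwet arrays carry titles numbered 109 to 117, and were divided in the same way into silwet set 1 (109 to 111), set 2 (112 to 114) and set 3 (115 to 117). No label says that a silwet set matches the SA set of its number; the 9 pairs of a silwet and an SA array of 1 set and Rep number stood next to each other in 9 of 9 cases when the arrays were sorted by the second number of their titles. Tests of both treatments together rest on this match. In a limma fit of all 18 arrays, 5608 probe sets differed between SA sets 1 and 2, 3605 between SA sets 1 and 3 and 1 between SA sets 2 and 3. In that fit, 250 probe sets differed between silwet sets 1 and 2 (1.57%), 889 between silwet sets 1 and 3 (5.58%) and 0 between silwet sets 2 and 3, where 630 had an unadjusted p under 0.05. The GAPDH ratio of 5' to 3' signal was 0.465 on silwet set 2 Rep1 and 0.225 on silwet set 3 Rep1, against at least 0.938 on the other silwet arrays. Without silwet set 2 Rep1, 0.879% of probe sets differed between silwet sets 1 and 2, and without silwet set 3 Rep1, 2.79% differed between silwet sets 1 and 3. PUB23 had silwet signals of 82.8, 288 and 263 in set 1, 18.3, 61.9 and 42.2 in set 2 and 13.6, 25.7 and 29.9 in set 3, and its set 1 to set 2 difference was past the threshold there too (log2 2.28; limma adjusted p = 0.00744). PUB22, CML38, CYP84A4, XTH18, BIK1, B120, WRKY22 and LHCB4.3 also differed between silwet sets 1 and 2, in the same direction as in the SA arrays. UGT76B1 had silwet signals of 188, 62.7 and 121 in set 1, 54.0, 84.0 and 38.3 in set 2 and 10.7, 8.72 and 19.2 in set 3, with a log2 difference of 0.99 between silwet sets 1 and 2 (adjusted p = 0.345) and 3.01 between silwet sets 1 and 3 (adjusted p = 0.00142). A test of whether SA minus silwet differed among the title sets passed 188 of 15922 probe sets (1.18%), with 20 past it without silwet set 1 Rep1 and 428 without silwet set 2 Rep1. Taken alone, the set 1 to set 2 difference in SA arrays differed from that in silwet arrays in 647 probe sets. That count was 251 without silwet set 1 Rep1 and 1392 without silwet set 2 Rep1, and it also fell without the Rep number as a block. The same test passed 7 probe sets for sets 1 and 3 and 0 for sets 2 and 3. For most probe sets, then, the difference between SA sets was not shown to differ from that between silwet sets.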

How the data were processed

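Labelled RNA was hybridised to ATH1 arrays, 1 array a sample, and the authors deposited 1 MAS5 signal per probe set, an intensity on a linear scale. Per the submitters' processing notes the tool was MAS5; tissue, growth and extraction are not stated by the labels. The values were used as deposited signal, and the trimmed mean without the 2% of probe sets at each end was 100 on every array. Number of arrays limits the precision.

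The 64 AFFX controls entered no test. Tests ran on log2(signal + 2) in limma 3.58.1 under R 4.3.3 (lmFit, eBayes with an intensity trend, Rep number as a fixed block, two-sided), over the 9 SA arrays, after the 30% of probe sets with the lowest mean over them were dropped, with Benjamini-Hochberg adjustment over all 15922. A pseudocount of 2 understates differences of dim genes. The files used here give no detection calls, so a low signal is not shown to lie above background. Control-transcript ratios had an exact permutation test. Each difference is the lower-numbered set minus the higher-numbered set.

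Of 22810 probe sets, 13513 name 1 gene, 503 several and 8794 none in the annotation used; 13436 matched RefSeq names. Probe sets of several genes were never named, and the brightest stands for a gene. Named genes were the 12 widest differences in each direction of each comparison, up to 4 called members of each list, and UGT76B1, GRX480, WRKY53, PUB22, PUB23, KEU and SAG29; further list members named were chosen after their values were seen. The members and lists were chosen with earlier results of these data known. The script was tested on simulated data. Alternatives changed the pseudocount, filter, scaling, block, trend, array weights and arrays included.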

Additional observations from a re-analysis of the deposited data

Results flagged for a closer look

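For 12 named genes the difference between title sets 1 and 2 was not the same in SA and silwet arrays, by the interaction test over all 18 arrays in limma (adjusted p under 0.05 for the F-test over both free contrasts, with 188 of 15922 probe sets past it, 1.18%). Most named genes were picked by their differences between SA sets, and this test reuses those SA values, which favours passing. The count of 12 is therefore not to be set against the 1.18%. The values below are the log2 difference of set 1 minus set 2 in SA arrays less the same difference in silwet arrays. Genes of sugar transfer and detoxification had positive values: 3.14 for UGT76B1, 2.75 for UGT73B5, 2.51 for UGT73D1 and 2.88 for CYP71B23. The co-chaperone gene ATERDJ3B had 1.86 and the ubiquitin ligase gene PUB24 had 1.54. Negative values were found for the transporter gene AT1G68570 at -2.12, the leucine-rich repeat gene DRT100 at -2.25, the methionine sulfoxide reductase gene MSRB5 at -2.47, the carboxypeptidase-like genes SCPL34 at -2.15 and scpl50 at -2.25, and the beta-glucosidase gene BGLU44 at -0.96.

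In UGT73B5 the signals were 160, 137 and 153 in SA set 1 and 14.4, 21.7 and 12.4 in SA set 2, while in silwet arrays they were 31.7, 45.4 and 68.5 in set 1 and 34.4, 56.0 and 24.4 in set 2. SCPL34 had 24.4, 16.5 and 32.8 in SA set 1 and 121, 81.5 and 110 in SA set 2, against 75.6, 60.6 and 99.1 in silwet set 1 and 65.7, 69.3 and 77.5 in silwet set 2. MSRB5 had 98.2, 106 and 114 in SA set 1 and 719, 296 and 464 in SA set 2, against 456, 360 and 269 in silwet set 1 and 418, 178 and 277 in silwet set 2. Of these 12 genes, 3 passed the F-test without silwet set 1 Rep1 (ATERDJ3B, DRT100 and SCPL34, adjusted p = 0.0398, 0.0412 and 0.0412), 11 passed without silwet set 2 Rep1 and 11 without silwet set 3 Rep1, and 2 passed without the Rep number as a block (ATERDJ3B and UGT73B5, 0.0247 and 0.0387). The pattern was not weighed further.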

How the results depend on the processing

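Of 208 differences of a named gene between set 1 and another set, 141 stayed past the threshold in every alternative they were run in, 67 lost their call in at least 1 and 0 changed sign; over 3707 values, 3343 kept and 364 lost the call. Array weights gave 7375 calls between sets 1 and 3, 8457 between sets 2 and 3 and 11738 by the F-test, and their fit stopped before it converged. Median centring gave 37 calls between sets 2 and 3. Leaving out 1 array in turn gave 4314 to 7799 calls between sets 1 and 2, 2425 to 4982 between sets 1 and 3, 0 to 3911 between sets 2 and 3 and 3664 to 8751 by the F-test. Arrays of the same Rep number deviated together in part: 6 of 9 pairs had a correlation over 0.1, with a range from -0.21 to 0.27. Between sets 1 and 3 the correlations of Rep1, Rep2 and Rep3 were 0.248, 0.265 and 0.222. The labels do not say what arrays of 1 Rep number share, and the replicate block was used because the comparison names it. Without the replicate block the counts were 6568, 4168 and 130 (sets 1 and 2, sets 1 and 3, sets 2 and 3), and the interaction test gave 27. Without silwet set 1 replicate 1 that test gave 20, and without silwet set 2 replicate 1, chosen after seeing the data, 428. The other alternatives were a pseudocount of 16, no filter, the lowest 50% left out, quantile normalization, no trend and only the 6 arrays compared. They were not run for the interaction test, and they kept the counts between SA sets within 1.5 times. The cause of these shifts was not tested. With 3 arrays a set, limma between sets 2 and 3 made 0 calls although 4050 probe sets had an unadjusted p under 0.05.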

Other observations

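Of 3 sugar starvation genes tested, 2 (66.7%, against 22.5% of all tested probe sets) were higher in set 1 than in set 2. Against set 3, 1 was higher and 1 lower in set 1 (33.3% each, against 12.2% and 14.9%). IVD, an enzyme gene of branched-chain amino acid breakdown that rises in darkness and sugar shortage, had signals of 122, 112 and 134 in set 1, 33.3, 35.1 and 25.7 in set 2 and 67.2, 61.6 and 31.7 in set 3 (log2 difference 1.91 between sets 1 and 2 and 1.23 between sets 1 and 3; limma adjusted p = 0.000437 and 0.00645). All 3 set 1 arrays were above the rest, and set 3 Rep3 lay among the set 2 arrays. MCCA, a subunit gene of the methylcrotonyl-CoA carboxylase that acts in the same pathway, had 22.1, 23.1 and 41.3 in set 1, 11.6, 7.57 and 14.6 in set 2 and 27.7, 20.7 and 27.8 in set 3, and was higher in set 1 than in set 2 (log2 1.20; adjusted p = 0.00536). MCCB, the other subunit gene of that enzyme, was lower in set 1 than in set 3 (log2 -0.95; adjusted p = 0.0461), a call lost in 9 of 18 alternatives (adjusted p of up to 0.232).

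AT3G21670, AT4G13840 and TINY2 were lower in set 1 than in set 2. AT3G21670, a member of the transporter list, had signals of 202, 344 and 200 in set 1, 824, 698 and 711 in set 2 and 367, 472 and 342 in set 3 (log2 difference -1.62 between sets 1 and 2; limma adjusted p = 0.000264). The set 1 and set 3 arrays overlapped by 1 array in each, and set 2 lay above both. AT4G13840, the only tested member of the lipid and wax list, had 90.3, 98.9 and 85.3 in set 1, 301, 235 and 431 in set 2 and 288, 280 and 290 in set 3 (log2 difference -1.75 and -1.62; adjusted p = 0.000271 and 0.000651). TINY2, an AP2 transcription factor gene, had 10.3, 4.28 and 10.0 in set 1, 37.9, 46.2 and 50.4 in set 2 and 25.2, 41.7 and 17.1 in set 3.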
